A study of Homo sapiens with 6 samples.

Results

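The ERK pathway carries growth signals from receptors through RAS, RAF and MEK to the ERK kinases. Active ERK switches on genes that report its output, and several of them feed back on the pathway. DUSP phosphatases remove the activating phosphates from ERK, Sprouty (SPRY) and SPRED proteins restrain signalling between the receptor and RAF, and the PEA3 factors ETV4 and ETV5 carry the signal on to transcription. The RNA levels of such genes are widely used as a readout of ERK output. The cells studied here, A549, are a human lung adenocarcinoma line.

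10 genes of this kind were chosen by name, namely DUSP4, DUSP5, DUSP6, SPRY2, SPRY4, SPRED1, SPRED2, ETV4, ETV5 and PHLDA1. They are 10 of the 23180 gene symbols with counts, and each was read on its transcript with the largest summed count. RNA-Seq had been performed in A549 cells of genotype WT, at passage 11, transfected with siControl (3 samples) or with an siRNA against KMT9α (3 samples, siRNA_KMT9a in the labels). KMT9α is the catalytic subunit of a histone H4 lysine methyltransferase and is encoded by N6AMT1. The cells were harvested 3 days after transfection, and the knock-down rests on 1 cell line and 1 siRNA sequence, named siKMT9α#1 in the study.

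The 6 libraries held 13740097 to 19832395.5 counts on these transcripts. N6AMT1, the targeted gene, was at 10.2 to 11.4 CPM (counts scaled to a common library total) with siControl and at 2.87 to 3.35 CPM with siKMT9α. The scaling factors, computed as trimmed means of M-values (TMM), lay between 1.03 and 1.04 for siControl and at 0.96 for siKMT9α, and without them the log2 fold changes of all genes shifted by a median of -0.11. Of the markers fixed for a lung epithelial line, KRT18, KRT8 and KRT7 were between 501.7 and 2161.8 CPM. EPCAM and CDH1 were low, at 0.44 to 9.67 CPM. The 5 epithelial markers summed to between 4348 and 4823 CPM with siControl and to between 2906 and 3092 CPM with siKMT9α. The 3 immune markers, of which CD3E was at 0 in every library, summed to at most 3.76 CPM with siControl and 2.30 CPM with siKMT9α. The 3 endothelial markers summed to at most 0.80 and 0.16 CPM and the 3 fibroblast markers to at most 8.17 and 3.24 CPM. The part of these shifts in the results was not tested. In each group 1 library stood somewhat apart. By a chi-square of the counts, siKMT9α replicate 3 lay at 5.25 and 4.57 per gene from the other two, which lay at 1.36 from each other, and siControl replicate 1 lay at 4.70 and 4.01 from the other two, which lay at 1.81 from each other. Pairs across the groups lay at 107 to 140. The sources used here do not say whether the biological replicates came from separate cultures, so p-values measure the spread between these samples.

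Upon knock-down of KMT9α, the output genes did not move as one. SPRY2, DUSP5 and SPRED1 rose by 3.32-fold, 2.22-fold and 1.89-fold, ETV4 and PHLDA1 rose less, and ETV5 fell. DUSP6, an ERK phosphatase widely used as a reporter of ERK output, was at 49.0 ± 2.33 CPM with siControl and 49.4 ± 0.64 CPM with siKMT9α (SD, n = 3 each). In edgeR's quasi-likelihood F test, 9 of the 10 genes had an adjusted p under 0.05. 7 of these were higher and 2, ETV5 and DUSP4, were lower after knock-down. Standard errors (SE) of log2 fold changes are from the same fit. Of all 13877 genes tested, 75.6% passed the same threshold, 37.1% higher and 38.5% lower, which is the background for the count of 9. That count fell to 6 with offsets for GC content and length, and to 7 with the library size alone. It was also 7 without siControl replicate 3 and without siKMT9α replicate 2. Without siControl replicate 1 the count was 9 as well, and without siKMT9α replicate 3 it was 8, with DUSP4 lost. In both cases 3 genes passed the threshold of the study described next, and SPRY2 had a log2 fold change of 1.66 and 1.78, DUSP5 of 1.15 and 1.19, and SPRED1 of 0.94 and 0.88. At the stricter threshold of the study (P below 1e-08, and a log2 fold change beyond 0.26 in either direction), 3 of the 10 were called, all higher, against 24.2% of all genes, with 13.5% higher and 10.7% lower. The test behind these P-values is the quasi-likelihood F test, and the study names edgeR but not which of its tests. With edgeR's likelihood-ratio test, 6 of the 10 and 5962 of all 13877 genes tested were past that threshold. The groups did not overlap in 9 of the 10 genes and in 77% of all genes. In median, the log2 fold change of the 10 genes was 0.26 and that of all genes tested -0.01. In these bulk samples, fewer expressing cells and less RNA per cell cannot be told apart.

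**Figure D1:**
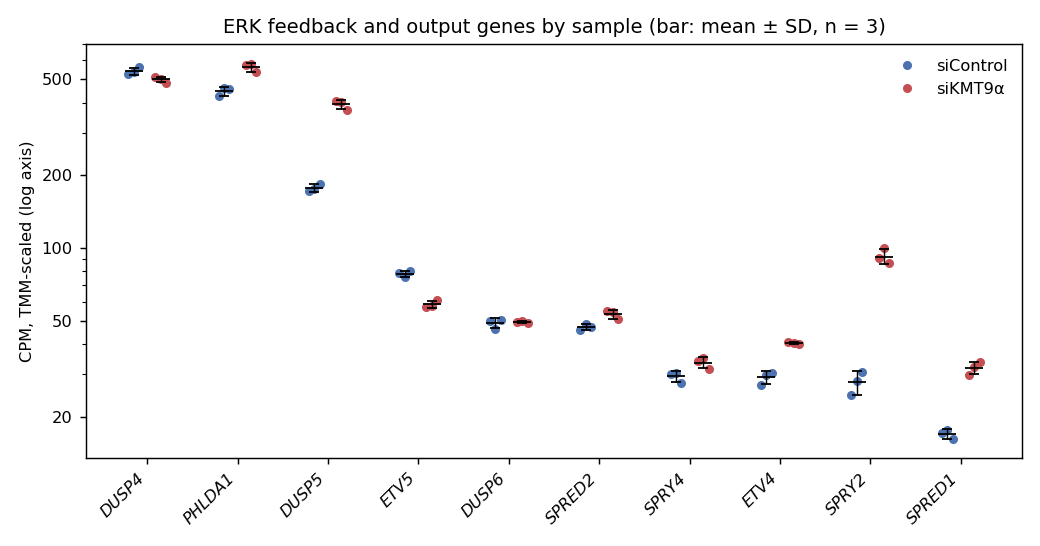
Level of the 10 genes in each sample, as TMM-scaled CPM on a log axis, with siControl in blue and siKMT9α in red, ordered by the siControl mean. Points are samples and bars are mean ± SD (n = 3); SPRY2, DUSP5 and SPRED1 show the widest gaps, and the points of DUSP6 overlap.

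Matches to the siRNA seed and to motifs of ERK-regulated factors were looked up in the sequences of the 10 genes. An siRNA guide can silence other mRNAs through its seed, bases 2 to 8, and the seed of the siRNA that the study names pairs with the 7-mer ACATTCA. Of the 10 genes, 4 hold 1 copy each in the 3′ UTR of their GENCODE transcript within the deposited span, and 11.0% of the 12666 genes tested with such a UTR hold at least 1. Among the 7566 genes with a UTR in the length range of the 10 genes, 673 to 5585 bases, the share was 15.1%. The 4 genes with the 7-mer have UTRs of 2650 to 5585 bases, so this share is not matched to their lengths. The windows on GRCh37 are chr12:76419344-76419372 for PHLDA1 (minus strand), chr15:38649408-38649436 for SPRED1 (plus), chr2:65539923-65539951 for SPRED2 (minus) and chr5:141691766-141691794 for SPRY4 (minus), with the 7-mer in capitals.
PHLDA1: tatacaccatcACATTCAtgaatttttta
SPRED1: gttcaaaaaatACATTCAtaataaaagtc
SPRED2: actgatgcaaaACATTCAcccgtaataga
SPRY4: gaaaaaaacacACATTCAgccaaccactt
None of these 4 genes was lower after knock-down, and both lower genes, DUSP4 and ETV5, hold no copy. In median, the log2 fold change was 0.26 over the 4 genes with the 7-mer and 0.24 over the 6 without it. A part of the seed in these values was not tested.

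CIC is a repressor that holds down ETV, DUSP and SPRY genes until ERK releases it, and it binds the octamers TGAATGAA, TGAATGGA, TCAATGAA and TCAATGGA. RefSeq promoters on GRCh38.p14, from 250 bases before to 50 after the start, were given for 6 of the 10 genes (DUSP6, SPRY2, SPRY4, SPRED1, SPRED2 and PHLDA1) and not for DUSP4, DUSP5, ETV4 and ETV5. On either strand, an octamer was found in the promoter of DUSP6 alone of these 6, with 2 copies, and in 3.77% of the 35116 promoter windows of all genes. The AP-1 letters TGACTCA or TGAGTCA were found in 1 of the 2 windows of SPRED2 and in 4.95% of all windows. The ETS letters CCGGAAGT were found in none of the windows of these 6 genes and in 4.14% of all windows. The DUSP6 window is chr12:89352452-89352751 (minus strand), where the capitals mark the octamer as read on the other strand, starting 24 bases before the start base and 1 base after it. Of the 3 SPRY2 windows, none of which holds any of these letters, chr13:80341077-80341376 (minus strand) is shown because SPRY2 changed most among the 10 genes.
DUSP6: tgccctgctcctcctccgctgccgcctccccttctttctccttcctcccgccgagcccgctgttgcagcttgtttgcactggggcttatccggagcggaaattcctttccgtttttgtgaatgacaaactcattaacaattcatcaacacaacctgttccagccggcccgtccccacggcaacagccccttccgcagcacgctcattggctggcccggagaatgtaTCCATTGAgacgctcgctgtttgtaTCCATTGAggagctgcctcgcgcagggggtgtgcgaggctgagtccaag
SPRY2: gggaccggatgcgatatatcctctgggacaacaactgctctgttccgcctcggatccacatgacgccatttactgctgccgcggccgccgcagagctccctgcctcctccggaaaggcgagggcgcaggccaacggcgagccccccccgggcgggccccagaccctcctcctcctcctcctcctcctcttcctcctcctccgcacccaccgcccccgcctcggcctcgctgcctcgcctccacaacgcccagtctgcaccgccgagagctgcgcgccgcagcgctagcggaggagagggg
A match of letters is a description and no measure of binding.

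Among the Sprouty genes, SPRY2 and SPRY4 both encode inhibitors that act between receptor tyrosine kinases and RAF. SPRY2 is listed as transcript NM_005842 at chr13:80910112-80915086 of hg19 and lies on the minus strand. In the order of the replicates, the siControl libraries gave SPRY2 levels of 24.5, 28.2 and 30.6 CPM, and the siKMT9α libraries gave 90.6, 99.6 and 86.6 CPM. The lowest siKMT9α sample was thus well above the highest siControl sample. SPRY2 rose by a log2 fold change of 1.73 (SE 0.07, edgeR adjusted p = 6.78e-14), more than 93.8% of all genes tested in absolute size. SPRY4, listed as NM_030964 at chr5:141689992-141704620, was at 30.1, 30.5 and 27.5 CPM with siControl and at 34.0, 35.1 and 31.5 CPM with siKMT9α. The SPRY4 groups lay next to each other without overlapping. SPRY4 had a log2 fold change of 0.19 (SE 0.07, edgeR adjusted p = 0.018), and the call was lost with the library size alone (0.08) and with offsets for GC content and length (0.03). It was also lost without siControl replicate 3 (0.15) or siKMT9α replicate 2 (0.16).

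The ratio of 2 genes within a library does not depend on the scaling of that library. Per base of transcript, SPRY2 exceeded SPRY4 by 1.93, 2.19 and 2.63 times in the siControl samples and by 6.31, 6.73 and 6.50 times in the siKMT9α samples. The mean ratio went from 2.25 ± 0.35 to 6.51 ± 0.21 (SD, n = 3 each). For this and the other 4 ratios, the gene with the larger log2 fold change was put on top after the values were seen. The direction of the ratios is set by that choice, so they are a description with no test.

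The DUSP genes code for phosphatases that act on MAP kinases, with DUSP4 and DUSP5 in the nucleus and DUSP6 in the cytoplasm. DUSP5, which is selective for ERK, is listed as NM_004419 at chr10:112257625-112271302 on the plus strand. It was at 171.6, 176.1 and 184.3 CPM in the siControl samples and at 407.1, 402.3 and 375.0 CPM in the siKMT9α samples. The groups were far apart, and DUSP5 rose by a log2 fold change of 1.15 (SE 0.05, edgeR adjusted p = 1.03e-13). DUSP6, listed as NM_001946 at chr12:89741837-89746296 on the minus strand, was at 50.1, 46.3 and 50.5 CPM with siControl and at 49.4, 50.1 and 48.8 CPM with siKMT9α. Here all 3 siKMT9α samples lay within the siControl range. The log2 fold change of DUSP6 was 0.01 (adjusted p = 0.859) with a 95% interval from -0.11 to 0.13, which corresponds to 0.93-fold to 1.09-fold. Its sign turned with the library size alone (-0.09).

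DUSP4, which acts on ERK and on JNK and p38, was the most abundant of the 3 in control cells. It is listed as NM_001394 on chromosome 8 of hg19 from 29190579 to 29208267 and was at 527.8, 534.7 and 562.6 CPM with siControl against 512.5, 502.0 and 485.5 CPM with siKMT9α. The siKMT9α samples were all below the siControl samples, by a small margin. DUSP4 had a log2 fold change of -0.12 (SE 0.05, edgeR adjusted p = 0.033). The call was lost without siControl replicate 2 (-0.12, adjusted p = 0.071) or 3 (-0.08, adjusted p = 0.268) and without siKMT9α replicate 2 (-0.12, adjusted p = 0.086) or 3 (-0.09, adjusted p = 0.078). It was also lost with the replicate number as a block (-0.12, adjusted p = 0.077), with RLE factors (-0.10), without the filter on low counts (-0.10) and on the second transcript of the gene, NM_057158 (-0.10, adjusted p = 0.067). With GC and length offsets the value was -0.33.

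The phosphatases changed their order between the groups. Per base of transcript, DUSP5 stood at 0.72, 0.73 and 0.73 of DUSP4 in the siControl samples and at 1.77, 1.78 and 1.72 times DUSP4 in the siKMT9α samples. The ratio of DUSP5 to DUSP6 went from 4.05 ± 0.21 to 8.92 ± 0.32 (SD, n = 3 each).

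**Figure D2:**
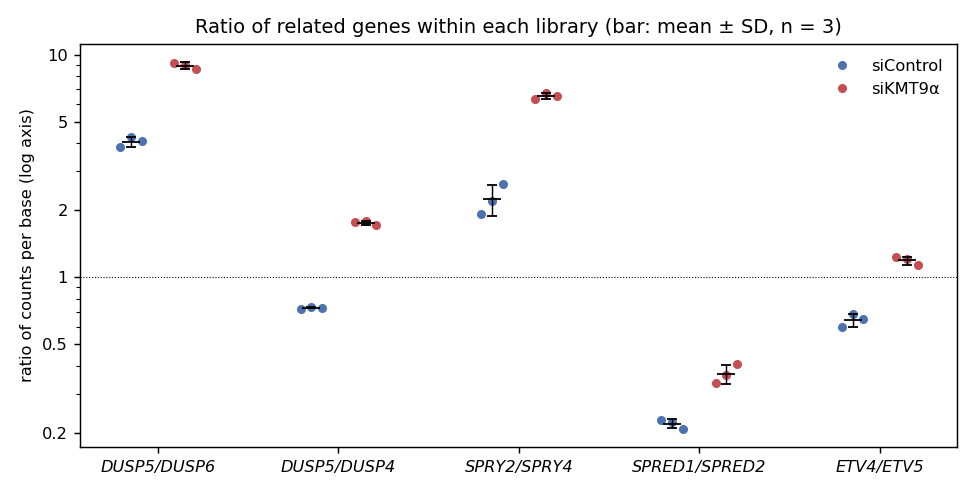
Ratio of related genes within each library, as counts per base of transcript on a log axis, with siControl in blue and siKMT9α in red (points are samples, bars are mean ± SD, n = 3). The common direction follows from placing the gene with the larger log2 fold change on top, and the ratios DUSP5/DUSP4 and ETV4/ETV5 crossed from below 1 to above 1.

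The SPRED genes encode Sprouty-related inhibitors, and SPRED1 is known to bring neurofibromin, the RAS-inactivating product of NF1, to the membrane. SPRED1 is listed as NM_152594 at chr15:38545052-38649450 on the plus strand. It was at 17.1, 17.6 and 16.2 CPM in the siControl samples and at 29.9, 32.2 and 33.7 CPM in the siKMT9α samples. All siKMT9α samples lay clearly above the siControl samples, and SPRED1 rose by a log2 fold change of 0.92 (SE 0.07, edgeR adjusted p = 9.94e-10). The annotated SPRED1 transcript has the lowest GC content of the 10 genes, 36.3%, and with GC and length offsets its log2 fold change was 0.72. SPRED2, listed as NM_181784 at chr2:65537985-65659656, was at 45.7, 48.3 and 47.3 CPM with siControl and at 54.7, 54.2 and 50.7 CPM with siKMT9α. The groups were close and did not overlap. The log2 fold change of SPRED2 was 0.17 (SE 0.06, edgeR adjusted p = 0.0093), and the call was lost with the library size alone (0.07) and with GC and length offsets (0.02). The ratio of SPRED1 to SPRED2 per base went from 0.22 ± 0.0099 to 0.37 ± 0.036 (SD, n = 3 each).

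ETV4 and ETV5 are paralogous ETS factors that usually respond to ERK together, and here they moved in opposite directions. ETV4, listed as NM_001079675 at chr17:41605211-41623762, was at 27.2, 29.9 and 30.3 CPM with siControl and at 40.6, 40.3 and 40.1 CPM with siKMT9α. The siKMT9α samples were all higher, and ETV4 rose by a log2 fold change of 0.47 (SE 0.06, edgeR adjusted p = 1.60e-06). ETV5, listed as NM_004454 at chr3:185764106-185826901, was at 78.6, 75.5 and 80.0 CPM with siControl and at 56.9, 57.5 and 60.8 CPM with siKMT9α. The siKMT9α samples were all lower, and ETV5 fell by a log2 fold change of -0.42 (SE 0.05, edgeR adjusted p = 6.75e-07). Neither gene passed the threshold of the study in the quasi-likelihood fit. Over the alternative settings ETV4 passed it in 5 of 17 and ETV5 in 6 of 16. For both genes these included edgeR's likelihood-ratio test and DESeq2. Per base of transcript, ETV4 was at 0.60, 0.68 and 0.65 of ETV5 in the siControl samples and at 1.23, 1.21 and 1.13 times ETV5 in the siKMT9α samples. The counting strand is not stated in the sources used here, and exons of ETV4 overlap those of DHX8 on the other strand, while exons of ETV5 overlap those of DGKG. DHX8 had a log2 fold change of 0.13 and DGKG of 0.31, and the part of these neighbours in the values of ETV4 and ETV5 was not tested.

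PHLDA1, a pleckstrin homology-like protein that is induced by growth factor signalling, is listed as NM_007350 at chr12:76419227-76425556 on the minus strand. It was at 426.2, 460.5 and 455.1 CPM in the siControl samples and at 573.4, 578.9 and 535.8 CPM in the siKMT9α samples. The siKMT9α samples were all higher. PHLDA1 rose by a log2 fold change of 0.33 (SE 0.05, edgeR adjusted p = 6.57e-06), which became 0.10 (adjusted p = 0.072) with GC and length offsets. The exons of PHLDA1 and DUSP6 each overlap an annotated antisense RNA.

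**Figure D3:**
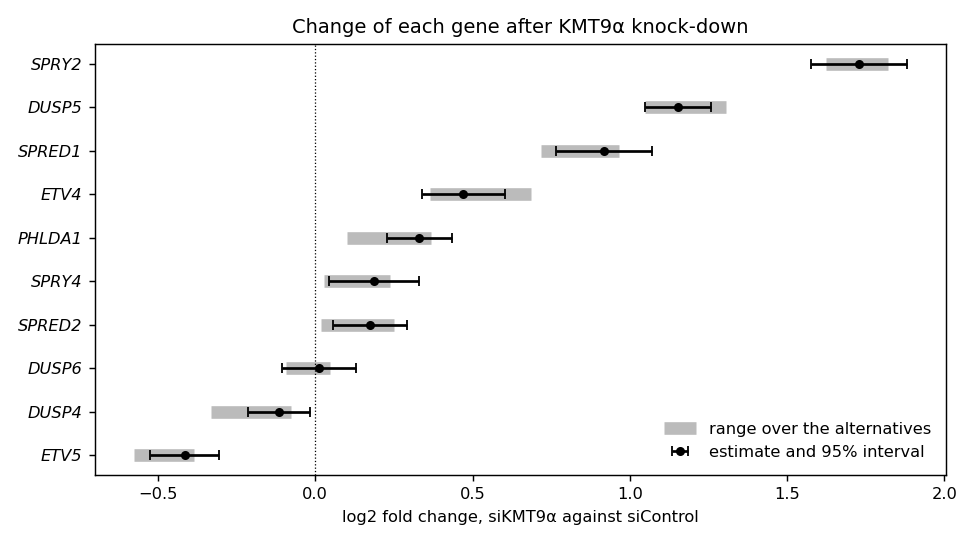
Log2 fold change of each gene, siKMT9α against siControl, with its 95% interval (black) and the range over the alternative settings (grey). SPRY2, DUSP5 and SPRED1 stay above 0.7 in every setting, DUSP6 lies across 0, and the grey bars of SPRY4 and SPRED2 reach close to 0.

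The levels of the genes were compared in CPM per kilobase of transcript (RPKM). In control cells DUSP4 was the highest with 96.5 ± 3.28 RPKM, followed by PHLDA1 with 75.7 ± 3.12 and DUSP5 with 70.4 ± 2.56 (SD, n = 3 each), where PHLDA1 and DUSP5 overlapped. ETV5 (19.1 ± 0.56), DUSP6 (17.4 ± 0.83), SPRY2 (13.2 ± 1.44), ETV4 (12.3 ± 0.72) and SPRED2 (10.6 ± 0.29) formed a middle group, in which SPRY2 and ETV4 overlapped. SPRY4 (5.89 ± 0.32) and SPRED1 (2.34 ± 0.10) were the lowest. After knock-down DUSP5 was the highest with 156.6 ± 6.87 RPKM, ahead of PHLDA1 with 95.2 ± 3.97 and DUSP4 with 89.1 ± 2.42, and the latter 2 overlapped. SPRY2 moved up to 43.8 ± 3.17 RPKM, above DUSP6 (17.6 ± 0.23), ETV4 (17.0 ± 0.11) and ETV5 (14.3 ± 0.52). SPRED2 (12.0 ± 0.49), SPRY4 (6.72 ± 0.36) and SPRED1 (4.41 ± 0.26) kept the last places.

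The other genes of the pathway were taken from 4 lists written from general knowledge, with earlier results of these data known. Of 23 receptor, adaptor, RAS, RAF, MEK and ERK genes, all tested, 14 had risen and 3 had fallen by the adjusted p, and 8 were higher and 2 lower at the threshold of the study. The 17 called are a share near the background of 75.6%, and the 10 past the threshold of the study stand beside a background of 24.2%. Their median log2 fold change was 0.20. EGFR, the receptor for EGF, rose from 18.1 ± 0.21 to 107.1 ± 6.87 CPM (SD, n = 3 each), and its log2 fold change was 2.57 (SE 0.06, edgeR adjusted p = 4.00e-17). GAB1, a docking protein below EGFR, had a log2 fold change of 2.30, and NF1, which inactivates RAS, of 1.66. ARAF rose by 0.86 on the log2 scale, and MAPK3, which encodes ERK1, went from between 25.6 and 28.8 CPM to between 7.32 and 9.89 CPM (log2 fold change -1.64, edgeR adjusted p = 2.02e-11).

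Other ERK-dependent output genes showed larger changes than the 10 feedback genes in median, in both directions. Of the 18 listed, 17 were tested (EGR3 had at most 6.5 counts), of which 12 were higher and 4 lower, with a median log2 fold change of 0.96. At the threshold of the study 11 were higher and 3 lower. Over all genes tested, 75.6% were called by the adjusted p and 24.2% at the threshold of the study. The cytokine gene IL11 rose from 63.9 ± 1.77 to 423.0 ± 20.7 CPM (SD, n = 3 each), with a log2 fold change of 2.73. The AP-1 genes FOS (2.24) and FOSL1 (1.73) and the EGF family ligand HBEGF (1.33) rose as well. EGR1, an immediate early gene, was at 12.1 ± 0.39 CPM in control cells and at 3.31 ± 0.84 CPM after knock-down (SD, n = 3 each), which gave -1.91 on the log2 scale (edgeR adjusted p = 2.99e-10), and the secreted peptide gene VGF had a log2 fold change of -1.82.

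Of 13 further DUSP, SPRY, SPRED, ETV and PHLDA genes, 12 were tested (SPRY3 had at most 0.5 counts), of which 4 were higher and 4 lower, with a median log2 fold change of 0.00. The 2 past the threshold of the study were both phosphatases and both lower. Both shares are below those over all genes, 75.6% and 24.2%. DUSP9, a cytoplasmic ERK phosphatase like DUSP6, fell from 7.35 ± 0.37 to 0.37 ± 0.068 CPM (SD, n = 3 each), and DUSP2, an inducible nuclear phosphatase, fell from 8.63 ± 1.55 to 1.53 ± 0.40 CPM (SD, n = 3 each). The log2 fold changes were -4.29 for DUSP9 and -2.50 for DUSP2. DUSP9 was too low to be kept by the filter of at least 10 counts in every sample. The 4 higher genes, named after their values were seen, were DUSP10 (0.52), DUSP16 (0.39), PHLDA3 (0.31) and DUSP1 (0.20). Of 14 kinases and transcription factors downstream of ERK, 6 were higher and 5 lower, with a median of 0.02, and 4 were past the threshold of the study, all higher, and both shares are near those over all genes. These were ETS1 (2.12), MKNK2 (1.57), ATXN1L (1.22) and ETS2 (0.67), where ETS1 and ETS2 are ETS factors, MKNK2 is a kinase that phosphorylates eIF4E, and ATXN1L is a partner of CIC. With the replicate number as a block, ETS2 (0.67, unadjusted p = 1.14e-08 from edgeR) was no longer past the threshold of the study. CIC itself, named after its values were seen, was at 59.3 ± 2.81 and 61.5 ± 2.48 CPM (SD, n = 3 each; log2 fold change 0.05, adjusted p = 0.414).

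**Figure D4:**
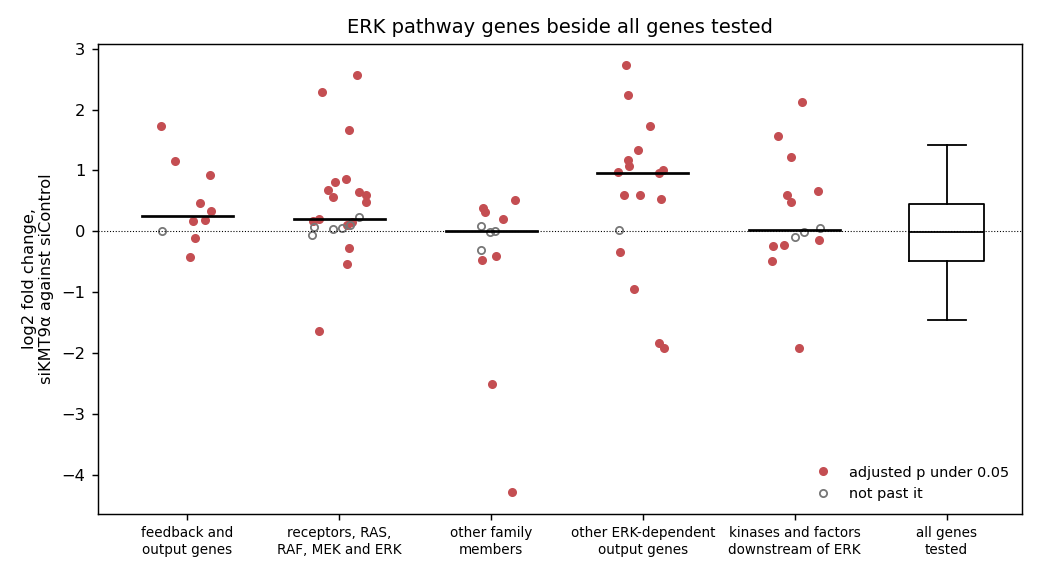
Log2 fold change, siKMT9α against siControl, for the 10 genes, the 4 pathway lists and all 13877 genes tested. Points are genes (red: adjusted p under 0.05), lines are medians, and the box shows the quartiles with whiskers from the 5th to the 95th percentile; the other output genes have the highest median, 0.96.

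The genes whose levels ran most alike to those of SPRY2 over the 6 samples were NEDD9, NCAPG2 and TMEM159, each with a Pearson correlation above 0.999 on log2 CPM. For ETV5, the gene with the largest negative change among the 10, they were EDA2R, COG2 and PLGRKT, with correlations from 0.9988 to 0.9998. The 6 samples fall into the 2 groups, so a correlation mostly reflects the difference between them. Of 13085 genes compared, 2935 had a correlation above 0.95 with SPRY2 and 2429 with ETV5.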

How the data were processed

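The reads were aligned to hg19 with STAR and counted per RefSeq transcript with HOMER's analyzeRepeats by the authors, who deposited estimated counts in steps of 0.5 without normalization. The 3 deposited columns of the authors' own edgeR comparison (a ratio and p-values) were not used. Of 38767 table rows, 1182 carry no symbol or counts. Depth and scaling are given in the text. Counts were rounded and fitted over all genes with edgeR 4.0.16 (TMM, filterByExpr with a minimum count of 10, quasi-likelihood F test, two-sided), with Benjamini-Hochberg adjustment over 13877 genes. Intervals use the standard error and the moderated degrees of freedom. The fit was also run on simulated counts in which few genes changed, equally up and down. That does not test it on data where most genes are called, as here. GC content, 3′ UTRs and strands came from GENCODE v44lift37 (20694 symbols matched), and promoters from RefSeq on GRCh38.p14. The genes and lists were chosen with earlier results of these data known, and the ratios, given with no test, after the values were seen. Genes of the lists were named if past the threshold of the study, at most 6 per list by absolute change (1 of these is not reported here), and the 3 genes most alike to the extreme members came from those with at least 1 CPM. Alternatives were edgeR's likelihood-ratio test, DESeq2 1.42.0, RLE factors, library size alone, other filters, other transcripts, the replicate number as a block, GC and length offsets, and each sample left out. Same-numbered samples did not deviate together (correlations of -0.08, 0.02 and -0.08).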

Additional observations from a re-analysis of the deposited data

How the results depend on the processing

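SPRY2, DUSP5, SPRED1, ETV4 and ETV5 kept their direction and an adjusted p under 0.05 under every alternative run. The genes higher at that threshold numbered 4 with GC and length offsets, with or without the block, against 7. They numbered 5 with the library size alone, and 6 without siControl replicate 3 and without siKMT9α replicate 2. The genes lower numbered 1 with RLE factors, without the filter, on the second transcript and with the replicate number as a replicate block, and 1 to 2 with each sample left out, against 2. The block changed no other call among the 10 genes. At the threshold of the study, 6 of the 10 genes passed with the likelihood-ratio test, with DESeq2, without the filter, and with the block and offsets together, and 5 with the offsets, against 3. Over all genes that threshold gave 5962 with the likelihood-ratio test, 4773 with DESeq2, 6070 without the filter (of 18751 genes tested), 4761 with the offsets and 5905 with block and offsets, against 3357 (of 13877). DUSP6 turned sign with the library size alone (-0.094), at least 10 counts in every sample (-0.0016), the offsets (-0.017), block and offsets (-0.016), and ranged from -0.018 to 0.045 with each sample left out. The cause was not tested. A GC content could be assigned to 97.6% of the tested genes.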

Other observations

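The following genes were singled out after their values were seen. The MEK genes MAP2K1 and MAP2K2 had log2 fold changes of 0.11 each, with edgeR adjusted p of 0.041 and 0.124. BRAF, which encodes a kinase above MEK, had a log2 fold change of 0.04 (edgeR adjusted p = 0.729).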
